A study of Homo sapiens with 9 samples.

Results

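The dual-specificity MAP kinase phosphatases described here were 10 genes (DUSP1, DUSP2, DUSP4, DUSP5, DUSP6, DUSP7, DUSP8, DUSP10, DUSP14 and DUSP16) of 26869 genes in a SLAM-Seq table of MCF10A cells, a line of human mammary epithelium that is not transformed. They were found by matching the RefSeq transcript identifiers of the table to gene symbols, which gave 14 rows and at least 1 row for every member. The family was chosen by its T>C conversion rates and total mRNA levels in these libraries, which were already known, so both are given as a description, and the family itself is not tested. All cells were JUN knockout (KO) cells that had been infected with a JUN allele carrying an auxin-inducible degron and a V5 tag (JUN-AID-V5) and with TIR1, the plant receptor that hands the degron to the proteasome when auxin is present. JUN in these cells was therefore an introduced protein and not the product of its own gene, and the knockout cells had been derived by growing out single cells. They were kept with 20 ng/ml epidermal growth factor (EGF), a ligand that activates ERK, and with 5% horse serum. Cells of 1 group received DMSO for 1 h and then 100 µM 4-thiouridine (4sU) for 1 h (DMSO 4sU, 3 libraries). A group treated with 100 µM of the auxin indole-3-acetic acid (IAA) for 1 h before the same pulse was also labelled as 3 replicates, but its 3 columns held identical values in all 56868 rows of the table and were counted as 1 library (IAA 4sU). The remaining group was a control that was kept without 4sU (no 4sU, 3 libraries), and the labels do not say whether it received DMSO. The study describes the replicates as biological, while the labels do not say how they were separated, and p-values measure the spread between these libraries.

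MAP kinases are switched on by phosphorylation of a threonine and a tyrosine in their activation loop, and the MAP kinase phosphatases (MKPs) remove both phosphates. DUSP1, DUSP2, DUSP4 and DUSP5 are nuclear enzymes that are induced by growth factors and stress, DUSP6 and DUSP7 are cytoplasmic and prefer ERK, and DUSP8, DUSP10 and DUSP16 prefer the stress-activated kinases JNK and p38. DUSP14 is a small phosphatase that lacks the kinase-binding domain of the others. Several of these genes are transcribed in response to ERK, JNK or p38 and so form a negative feedback loop, and their mRNAs are known to be short-lived.

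In SLAM-Seq, cells build 4sU into the RNA they make in the pulse, and alkylated 4sU is sequenced as C in place of T. The conversion rate is the fraction of T positions in a 3′ interval that were read as C, given here in percent and without subtraction of a background. Total mRNA is the number of reads in the 3′ interval scaled to library size (CPM in the table), old and new RNA together. The 7 distinct libraries held 18997637 to 24014195 reads. The median conversion rate over the 10895 genes tested lay between 0.0529% and 0.0542% in the unlabelled libraries and between 0.196% and 0.264% in the 4 labelled ones, a difference of 0.170 percentage points (two-sided exact permutation test, p = 0.057, which is the smallest value that 4 against 3 libraries allow). All 12 markers of basal mammary epithelium were present, with summed levels of 6781 to 9483 CPM in the no 4sU and DMSO 4sU libraries and 9534 CPM with IAA. PTPRC, CD3E, HBB and TYROBP, markers of blood cells, and VWF and CDH5, markers of endothelium, were at 0 reads in every library. Of the other blood markers, CD14 reached at most 4.19 CPM and LYZ was under 1 CPM in every library. The summed level of the 5 endothelial markers was at most 1.64 CPM. The 7 fibroblast markers summed to 13.3 to 18.7 CPM, and the highest of them was DCN, at up to 14.2 CPM. In every library 5 of the 7 were under 1 CPM, among them the collagen gene COL1A2 at 0 reads. Totals are shares of a library, so fewer cells with a transcript and less of it per cell cannot be told apart.

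The promoters of DUSP1, DUSP6 and DUSP8 are shown because DUSP1 and DUSP6 had the largest differences in total mRNA between labelled and unlabelled cells, and because DUSP1 and DUSP8 were the members whose promoter held a cyclic AMP response element (CRE). The sequences are from RefSeq (GRCh38.p14), on the minus strand, written 5′ to 3′ from 250 bases before the start site to 50 bases after it, with each CRE (TGACGTCA) in capitals.
DUSP1, chr5:172771146-172771445: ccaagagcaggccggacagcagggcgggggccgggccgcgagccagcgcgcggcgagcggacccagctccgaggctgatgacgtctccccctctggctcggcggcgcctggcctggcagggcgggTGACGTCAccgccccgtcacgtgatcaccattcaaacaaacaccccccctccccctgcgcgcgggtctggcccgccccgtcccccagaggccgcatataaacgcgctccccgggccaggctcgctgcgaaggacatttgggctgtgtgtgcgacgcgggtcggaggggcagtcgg
DUSP6, chr12:89352452-89352751: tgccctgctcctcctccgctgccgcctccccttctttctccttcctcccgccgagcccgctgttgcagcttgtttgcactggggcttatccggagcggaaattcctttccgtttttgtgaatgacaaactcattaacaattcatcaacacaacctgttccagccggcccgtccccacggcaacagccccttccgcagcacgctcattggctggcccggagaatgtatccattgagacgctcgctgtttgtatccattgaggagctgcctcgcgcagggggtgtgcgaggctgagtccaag
DUSP8, chr11:1572222-1572521: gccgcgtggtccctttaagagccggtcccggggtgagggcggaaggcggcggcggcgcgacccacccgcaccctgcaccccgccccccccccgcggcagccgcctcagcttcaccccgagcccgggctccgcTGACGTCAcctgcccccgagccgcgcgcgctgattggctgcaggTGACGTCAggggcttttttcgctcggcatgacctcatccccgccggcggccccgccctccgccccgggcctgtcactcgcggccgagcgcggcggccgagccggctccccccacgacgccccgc
The CRE, a site that CREB and ATF proteins can bind, began 125 bases before the start of DUSP1 and 118 and 74 bases before that of DUSP8. It was present on either strand in 1.848% of 35116 promoters of the same length. The E-box CACGTG, a site of MYC family proteins, began 108 bases before the start of DUSP1 and 113 bases before that of DUSP2, and 7.256% of all promoters held it. None of the member promoters searched held the AP-1 site TGANTCA (7.709% of all promoters), the ETS site CCGGAAGT (4.138%) or a CArG box, the site of serum response factor (1.293%). Both strands were searched, and none of these motifs contains another. DUSP4 and DUSP5 were not searched.

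Many short-lived mRNAs carry the pentamer ATTTA in the 3′ untranslated region (3′ UTR), where proteins that recruit decay enzymes can bind. One window of 30 bases is shown for each of the 4 members with the highest conversion rates in the DMSO 4sU libraries, written 5′ to 3′ on the gene's strand in GRCh37 (hg19, the build of the submitters' processing notes) with ATTTA in capitals, including where copies overlap.
DUSP1, chr5:172195643-172195672, minus strand: gctggtccttATTTATTTAacttcacccga
DUSP2, chr2:96809012-96809041, minus strand: tgctcagctgacATTTAacactccctcccc
DUSP6, chr12:89741878-89741907, minus strand: tttagagctggaATTTAttataagaatgta
DUSP10, chr1:221874842-221874871, minus strand: agaaaaaaaaATTTATTTAaaaatattttt
The 3′ UTR that matched the counting interval of DUSP1 in length held 4 ATTTA in 666 bases, and 11.4% of 1229 genes with a 3′ UTR of similar length held as many. DUSP2 held 3 in 654 bases, a number reached by 20.0% of 1214 genes of similar length. DUSP10 held 3 in 988 bases (36.6% of 1421 genes), and DUSP14 held 3 in 618 bases (17.2% of 1209 genes). DUSP16 held 8 in 3551 bases, DUSP4 held 6 in 3962 bases and DUSP8 held 4 in 2467 bases, numbers that 54.7%, 73.8% and 70.6% of genes of similar length reached. No 3′ UTR of DUSP6 matched its interval in length, and 1432 bases cut from the start of a longer one held 1. DUSP5 and DUSP7 held none in 1107 and 1896 bases. The longer motif TATTTAT was found 3 times in DUSP1, once in DUSP2, 4 times in DUSP4 and 2 times in DUSP8. It was not found in the other members, while 37.17% of 9071 genes with a 3′ UTR matched or cut to length held it. Among genes of similar length to DUSP1, DUSP2, DUSP4 and DUSP8, the shares with TATTTAT were 21.3%, 20.6%, 67.0% and 54.3%. For the members without it, these shares ran from 19.6% for DUSP14 to 63.6% for DUSP16. DUSP14 and DUSP16, which held 3 and 8 ATTTA, had the lowest rates of the 9 members with a rate above 0 in every labelled library. DUSP1 and DUSP2, which held 4 and 3, had the highest. The part of ATTTA in the rates was not tested.

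The first comparison, DMSO 4sU against no 4sU, asks how the conversion rate of each mRNA differed after the 1 h pulse. The rate is a share of T positions and not the share of the mRNA that was new, which was not estimated here. Among the members tested, mean conversion rates with DMSO and 4sU ran from 0.461% in DUSP14 to 9.57% in DUSP1. Limma on log2(rate + 0.0005) placed 9 of 9 members tested past an adjusted p of 0.05 as higher with 4sU, beside 48.6% of all 10895 genes tested (5299 genes). The median log2 change was 4.14 over the 9 members and 1.27 over all genes tested. These rates took part in the choice of the family, and nothing is drawn from the count.

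**Figure D1:**
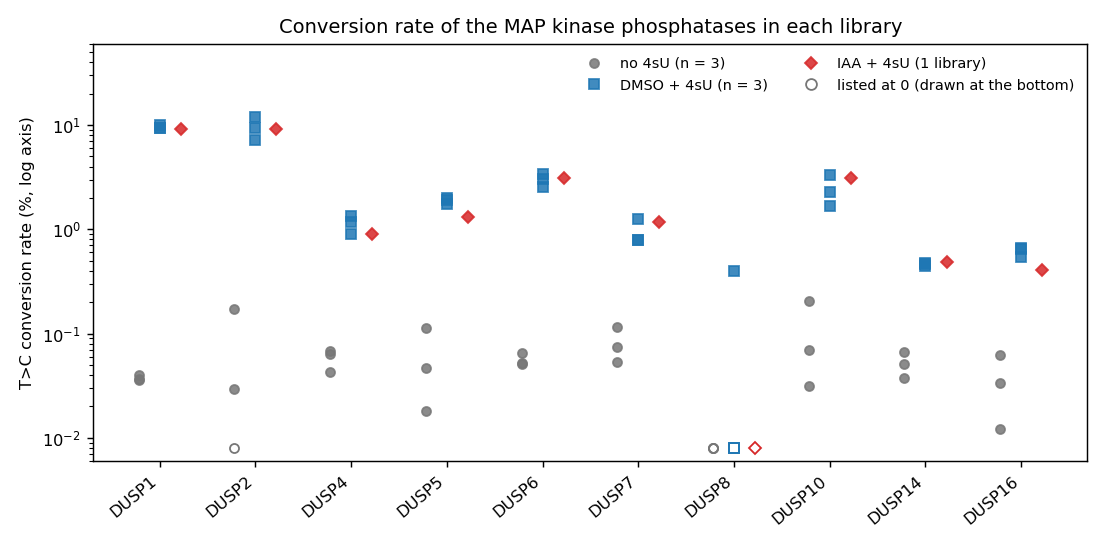
T>C conversion rate (%, log axis) of each member in each library, with no 4sU in grey, DMSO 4sU in blue and IAA 4sU in red, and open symbols at the bottom for values listed at 0. DUSP1 and DUSP2 lie near 10% in the labelled libraries, DUSP14 near 0.5%, and DUSP8 is listed at 0 in all but 1 library.

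DUSP1 (MKP-1; chromosome 5, 172195099 to 172198198, minus strand, GRCh37) is an immediate early gene whose product acts on p38, JNK and ERK in the nucleus. Its conversion rate was 9.32%, 10.0% and 9.35% in the 3 DMSO 4sU libraries and 0.0360%, 0.0368% and 0.0400% without 4sU. The labelled values were close to each other (9.57 ± 0.407%, SD, n = 3), and only 28 of the 10895 genes had a higher mean rate. DUSP2 (PAC1; chromosome 2, 96808908 to 96811179, minus strand), a nuclear ERK and p38 phosphatase best known from immune cells, was at 12.0%, 9.39% and 7.27% with 4sU and at 0.0293%, 0 and 0.171% without. Its mean of 9.54 ± 2.35% (SD, n = 3) ranked next to that of DUSP1, and the ranges of both genes overlapped. The spread of DUSP2 was the wider one, and it was read from 76 to 163 reads per DMSO 4sU library against 392 to 506 for DUSP1.

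DUSP6 (MKP-3; chromosome 12, 89741012 to 89746278, minus strand), the cytoplasmic ERK phosphatase and a classical ERK target gene, was at 3.02%, 3.39% and 2.57% in the DMSO 4sU libraries and at 0.0525%, 0.0652% and 0.0515% in the unlabelled ones. DUSP10 (MKP-5; chromosome 1, 221874766 to 221915431, minus strand), which acts on JNK and p38, was at 3.29%, 2.30% and 1.68% with 4sU and at 0.0313%, 0.206% and 0.0694% without. The ranges of DUSP6 and DUSP10 overlapped, with the wider spread for DUSP10, which had 51 to 90 reads per DMSO 4sU library. DUSP5 (chromosome 10, 112257665 to 112271291, plus strand), a nuclear phosphatase selective for ERK, was at 1.89%, 1.75% and 1.98% with 4sU and at 0.113%, 0.0464% and 0.0180% without. DUSP4 (MKP-2; chromosome 8, 29190581 to 29208201, minus strand), a nuclear phosphatase of ERK and JNK, was at 1.35%, 0.898% and 1.18% with 4sU and at 0.0642%, 0.0673% and 0.0425% without. All values of DUSP5 in the DMSO 4sU group were higher than those of DUSP4.

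The lowest rates were those of DUSP7, DUSP16 and DUSP14. DUSP7 (chromosome 3, 52082935 to 52090587, minus strand), which like DUSP6 prefers ERK, had 0.794% to 1.24% with 4sU and overlapped with DUSP4. DUSP16 (MKP-7; chromosome 12, 12626216 to 12715797, minus strand), a JNK phosphatase, had 0.547% to 0.667%. DUSP14 (chromosome 17, 35849997 to 35873603, plus strand) had 0.445% to 0.475%, the narrowest range of the family. Even these were above the highest unlabelled rates of the same genes, which were 0.115%, 0.0622% and 0.0670%. DUSP8 (chromosome 11, 1575281 to 1593501, minus strand), known mainly from brain and heart, had 9 to 31 reads per library. Its rate was listed at 0 in all libraries but DMSO 4sU replicate 3, where it was 0.402%, and it was not tested.

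Total mRNA differed in the other direction between the same groups. DUSP1, DUSP6 and DUSP4 were lower in the 4sU-treated cells, and no member was past the threshold as higher. In limma on log2(CPM + 1), 3 of 10 members were past the threshold as lower, beside 1.81% of all 12229 genes tested (221 genes). None of the 12229 genes was past it as higher in limma or in edgeR on the recovered reads, 4 were in DESeq2, and 231 genes were higher at an unadjusted p under 0.05. The median log2 change of the members was −0.62, and that of all genes tested was 0.0077. In 5 members (DUSP1, DUSP4, DUSP5, DUSP6 and DUSP7) all 3 DMSO 4sU libraries were below all 3 unlabelled libraries, beside 9.4% of all genes tested. Nothing is drawn from these counts, as total mRNA also took part in the choice of the family.

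**Figure D2:**
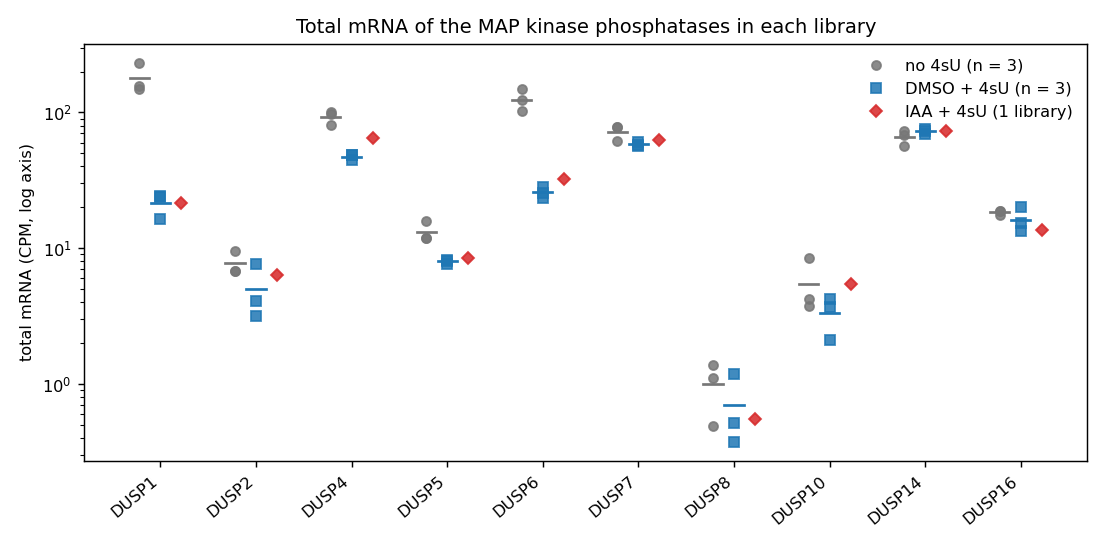
Total mRNA (CPM, log axis) of each member in each library, with horizontal lines at group means. The no 4sU points of DUSP1, DUSP4 and DUSP6 lie clear of the DMSO 4sU points, at 179, 93.2 and 124 CPM on average against 21.5, 47.2 and 25.7 CPM, while both groups overlap for DUSP2, DUSP8, DUSP10, DUSP14 and DUSP16.

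DUSP1 had 231 CPM, 149 CPM and 156 CPM without 4sU and 23.8 CPM, 16.3 CPM and 24.4 CPM with DMSO and 4sU. The lowest unlabelled library was thus far above the highest labelled one. The ratio of the group means was 8.31, and the log2 change was −3.05 ± 0.20 (SE). Of the 12229 genes tested, 1 gene had a lower log2 change. DUSP6 had 102 CPM, 148 CPM and 123 CPM without 4sU and 28.4 CPM, 23.4 CPM and 25.4 CPM with it. Its groups were also far apart, with a ratio of means of 4.82 and a log2 change of −2.28 ± 0.20 (SE), and 12 genes had a lower change.

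DUSP4 had 80.6 CPM, 102 CPM and 97.6 CPM without 4sU against 48.5 CPM, 48.8 CPM and 44.5 CPM with it. The ratio of means was 1.97 and the log2 change −1.02 ± 0.18 (SE). This member was not past the threshold when replicate 2 of both groups was left out (−0.97) or when replicate 3 was left out (−0.89). DUSP5 had 15.9 CPM, 11.8 CPM and 11.9 CPM without 4sU and 8.17 CPM, 8.08 CPM and 7.72 CPM with it, without overlap of the groups. Its log2 change of −0.71 ± 0.17 (SE) was not past the threshold in limma or edgeR, but was in DESeq2 (−0.76) and with the IAA library added to the labelled group (−0.70).

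The other members were not past the threshold. DUSP7 had 61.6 to 77.8 CPM without 4sU and 56.2 to 60.4 CPM with it, groups that were close but did not overlap (log2 change −0.37 ± 0.18, SE). DUSP2 had 9.54 CPM, 6.79 CPM and 6.84 CPM without 4sU and 7.66 CPM, 3.16 CPM and 4.08 CPM with it, so that DMSO 4sU replicate 1 lay among the unlabelled libraries (−0.66 ± 0.26, SE). Without replicate 1 of both groups, DUSP2 (−0.86) and DUSP7 (−0.52) were past the threshold. DUSP10 overlapped in the same way, with 3.74 to 8.40 CPM without 4sU and 2.12 to 4.23 CPM with it (−0.58 ± 0.28, SE). DUSP16 had 17.6 to 18.9 CPM and 13.3 to 20.0 CPM (−0.25 ± 0.19, SE). DUSP8 was at 0.494 to 1.39 CPM and 0.375 to 1.19 CPM (−0.27 ± 0.25, SE). DUSP14 had 56.9 to 73.5 CPM without 4sU and 69.3 to 75.3 CPM with it (0.07 ± 0.18, SE). It was the only member whose mean was higher in labelled cells, and its sign turned without replicate 1 (−0.10).

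Levels of different genes were compared per kilobase of the counting interval, although reads of 3′ libraries come from the end of the mRNA and do not scale with its length. In CPM without this scaling the order of the means without 4sU was DUSP1, DUSP6, DUSP4, DUSP7 and DUSP14, followed by the other members, and the ranges of DUSP7 and DUSP14 overlapped. Per kilobase DUSP1 was highest without 4sU, at 265 ± 67.9 CPM per kb (SD, n = 3), ahead of DUSP14 at 107 ± 13.6 and DUSP6 at 86.6 ± 16.1 CPM per kb, whose ranges overlapped. DUSP7, DUSP4, DUSP5, DUSP2, DUSP10, DUSP16 and DUSP8 followed, with overlap between DUSP5 and DUSP2 and between DUSP10 and DUSP16. With DMSO and 4sU the order changed at the top. DUSP14 was highest at 117 ± 4.82 CPM per kb, and DUSP1 at 31.8 ± 6.65 CPM per kb overlapped with DUSP7 at 30.6 ± 1.13 CPM per kb. In CPM without this scaling, the means with DMSO and 4sU were 72.4 for DUSP14, 58.1 for DUSP7 and 47.2 for DUSP4. DUSP6 at 25.7 CPM and DUSP1 at 21.5 CPM followed, with overlapping ranges, and DUSP1 did not overlap with DUSP7.

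**Figure D3:**
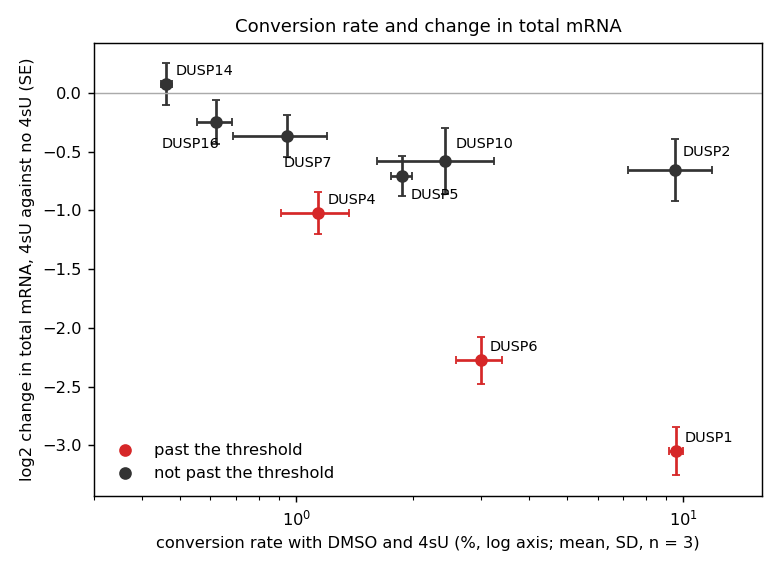
Conversion rate with DMSO 4sU (%, log axis; mean and SD of 3 libraries) against the log2 change in total mRNA between DMSO 4sU and no 4sU (estimate and SE) for 9 members, with members past the threshold of the total mRNA fit in red. DUSP1 and DUSP6 lie lowest at rates of 9.57% and 2.99%, while DUSP2, at 9.54%, lies at −0.66.

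Members with a higher conversion rate had, for the most part, the lower total mRNA in labelled cells, with a Spearman correlation of −0.80 across the 9 members and −0.40 across 7224 genes with at least 200 reads on average. Both axes were read from the same DMSO 4sU libraries. Both also took part in the choice of the family, so nothing is drawn from the coefficient of the members. DUSP1 and DUSP2 had overlapping rates and log2 changes in total mRNA of −3.05 and −0.66. Outside the family, 64 genes with at least 200 reads had a mean rate as high as that of DUSP6. Their median log2 change was −0.88, 28 of them were past the threshold as lower and 7 were as low as DUSP6. A single other gene with that many reads had a rate as high as DUSP1, and its change was 0.10. The part of the conversions in the lower totals was not tested.

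Genes around the MAP kinase pathway were listed by their role, in lists chosen with earlier results of these data known. Among 16 immediate early genes tested, the transcription factors and other early targets of ERK and stress kinases, 10 were lower in total mRNA with 4sU (median log2 change −1.11), and all 14 tested in the rate fit were higher (median 4.94). The count of 10 became 2 when replicate 2 or replicate 3 of both groups was left out, 11 without replicate 1 and 5 with no filter on low values. MYC had 179 ± 68.4 CPM without 4sU and 21.9 ± 0.162 CPM with it (SD, n = 3), a log2 change of −2.96 ± 0.31 (SE) that was close to that of DUSP1. KLF6, a zinc finger transcription factor, changed by −2.42 ± 0.20 (SE), and CCN1, a secreted matrix protein gene and a known YAP target, by −1.69 ± 0.28 (SE). The highest rate changes of this list were those of EGR1 (7.88 ± 1.19%, SD, n = 3, in the DMSO 4sU libraries), ZFP36, which encodes a protein that binds AU-rich elements (9.38 ± 0.658%), and KLF6 (5.93 ± 0.821%). These rates lay between those of DUSP6 and DUSP1.

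Other feedback inhibitors of the ERK pathway had 1 of 11 genes lower in total mRNA (median −0.46) and 6 of 11 higher in rate (median 3.19). Without replicate 1 of both groups 4 were lower in total mRNA, and DESeq2 gave 2. The gene lower in total mRNA was SPRY2, an inhibitor of receptor tyrosine kinase signalling, with 5.26 ± 1.38 CPM without 4sU and 1.86 ± 0.353 CPM with it (SD, n = 3; log2 change −1.16 ± 0.21, SE). Its rate was 6.50 ± 1.92%, followed by SPRY4 at 4.08 ± 1.24% and ERRFI1, an inhibitor of the EGF receptor, at 1.43 ± 0.165% (SD, n = 3). Of the MAP kinase kinases and their activators, 1 of 27 was lower in total mRNA (median −0.03) and 13 of 24 were higher in rate (median 1.06). The 13 became 3, 4 and 4 without replicates 1, 2 and 3, and 2 with rates centred on library medians. The kinase lower in total mRNA was MAP3K1, an activator of JNK and ERK signalling, which had 19.0 ± 2.69 CPM without 4sU and 9.17 ± 0.826 CPM with it (SD, n = 3; log2 change −1.03 ± 0.19, SE). In total mRNA, neither SPRY2 nor MAP3K1 was past the threshold without replicate 2 or without replicate 3. The rates of MAP3K8, MAP3K1 and MAP3K11 were 6.63 ± 3.38%, 1.46 ± 0.213% and 0.827 ± 0.556% (SD, n = 3). MAP3K8 was at only 1.51 ± 0.303 CPM without 4sU and 0.425 ± 0.231 CPM with DMSO and 4sU, so its rate rests on few reads.

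Of the MAP kinases, the substrates of the MKPs, 0 of 11 were past the threshold in total mRNA (limma; median log2 change −0.02), with 1 lower and 1 higher at an unadjusted p under 0.05 and 0 in edgeR and DESeq2, and 5 of 10 were higher in rate (median 1.28). The 5 became 3, 2 and 3 without replicates 1, 2 and 3, and 1 after centring. The largest rate changes were in MAPK14 (p38α, 3.26 ± 2.74%), MAPK7 (ERK5, 2.31 ± 1.55%) and NLK (0.466 ± 0.0597%; SD, n = 3 each), with SDs near the mean for the first and over 1% for the second. Of the proteins that MAP kinases phosphorylate in turn, 0 of 17 genes were past the threshold in total mRNA (limma; median 0.01), with 1 lower at an unadjusted p under 0.05 and 0 in edgeR and DESeq2, and 11 of 17 were higher in rate (median 1.48), led by ELK4, MKNK2 and MAPKAPK5 with 1.03 ± 0.970%, 0.504 ± 0.0667% and 0.225 ± 0.0643%. Leaving out replicates 1, 2 and 3 gave 3, 2 and 5 genes higher in rate, and centring gave 0. Other dual-specificity phosphatases, outside the 10 members, had 0 of 14 past the threshold in total mRNA (limma; median 0.00033), with 1 lower at an unadjusted p under 0.05 and 0 in edgeR and DESeq2, and 7 of 14 higher in rate (median 1.40), with the largest changes in DUSP18, SSH1 and DUSP23. The rates of DUSP18, SSH1 and DUSP23 were 1.71 ± 2.25%, 0.676 ± 0.189% and 0.362 ± 0.162% (SD, n = 3), with an SD above the mean for DUSP18. In this list 2, 4 and 2 genes were higher in rate without replicates 1, 2 and 3, and 0 after centring. The shares of all genes tested that these counts are read against are 1.81% for total mRNA and 48.6% for the rate.

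**Figure D4:**
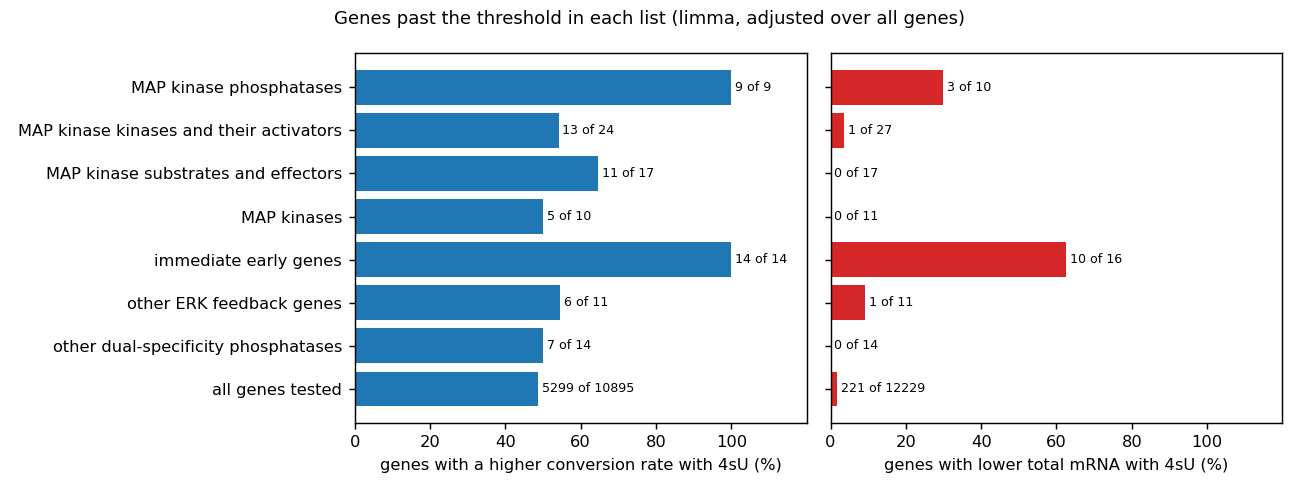
Share of the genes tested (%, bars from 0) in each list that were past an adjusted p of 0.05 in limma, as higher in conversion rate (left) or as lower in total mRNA (right) with 4sU, with the counts beside the bars and all genes tested at the bottom. Immediate early genes (14 of 14 and 10 of 16) and MAP kinase phosphatases (9 of 9 and 3 of 10) have the longest bars in both panels. Members and lists were chosen with earlier results of these data known, so nothing is drawn from the order of the bars.

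For DUSP1, DUSP4, DUSP5 and DUSP6, the genes with the highest Pearson's correlation of log2(CPM + 1) over the 7 libraries were searched among 8904 genes. This coefficient does not measure the level of a gene or the size of its change. DUSP1 was closest to KLF6 (r = 0.999), followed by MXD1 (0.998), GADD45A (0.997), TSC22D2 (0.997) and ADM (0.992). Of these, GADD45A, a growth arrest gene, had 156 ± 31.9 CPM without 4sU and 43.6 ± 3.72 CPM with it, and a rate of 3.99 ± 1.65% (SD, n = 3). MXD1 differed much less than DUSP1, with 19.6 ± 2.53 CPM without 4sU and 12.6 ± 0.851 CPM with it. Its rate was 0.845 ± 0.173% (SD, n = 3). DUSP6 was closest to RBAK (0.998), EPC1 (0.997), ZFP36L1 (0.996), GADD45B (0.995) and CHD2 (0.990). DUSP5 was closest to HOXA9 (0.994), ZNF267 (0.994), BCAR3 (0.992), ZNF639 (0.991) and GADD45A (0.990). DUSP4 had the lower coefficients, with ZCCHC8 (0.984), CHD2 (0.982), CDKN1B (0.981), CHD7 (0.978) and CCNL1 (0.972). The coefficients rest on 7 points in 2 clusters, labelled and unlabelled, which all of these genes share.

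The remaining comparison, IAA 4sU against DMSO 4sU, asks what changes when JUN protein is degraded. It had 1 library on the IAA side and no test. Since the degron removes the protein, the mRNA of JUN is no check of its loss. This mRNA was at 48.1 CPM, 57.6 CPM and 45.0 CPM without 4sU, at 30.2 CPM, 20.3 CPM and 25.6 CPM with DMSO and 4sU, and at 62.9 CPM in the IAA library. A gene was counted as different when its IAA value was higher or lower than in each of the 3 DMSO 4sU libraries and differed from their mean by 1 log2 unit or more. By this rule the total mRNA of JUN was counted as different, higher with IAA, among 17 of 12214 genes. This rests on 1 IAA library, and its cause was not tested.

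None of the members was counted as different, in 9 examined for the conversion rate (beside 21.4% of 11762 genes) and in 10 examined for total mRNA (beside 0.139% of 12214 genes). Outside the DMSO range at any distance were 5 members in the rate, beside 49.4% of all genes, and 5 members in total mRNA, beside 41.7%. The same count was made for each DMSO 4sU library against the other 3 labelled libraries, the IAA library among them. In the rate it was 3, 4 and 6 members, beside 51.6%, 51.1% and 47.9% of all genes. In total mRNA it was 3, 6 and 6 members, beside 54.1%, 64.8% and 39.4%. Nothing is drawn from these counts.

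**Figure D5:**
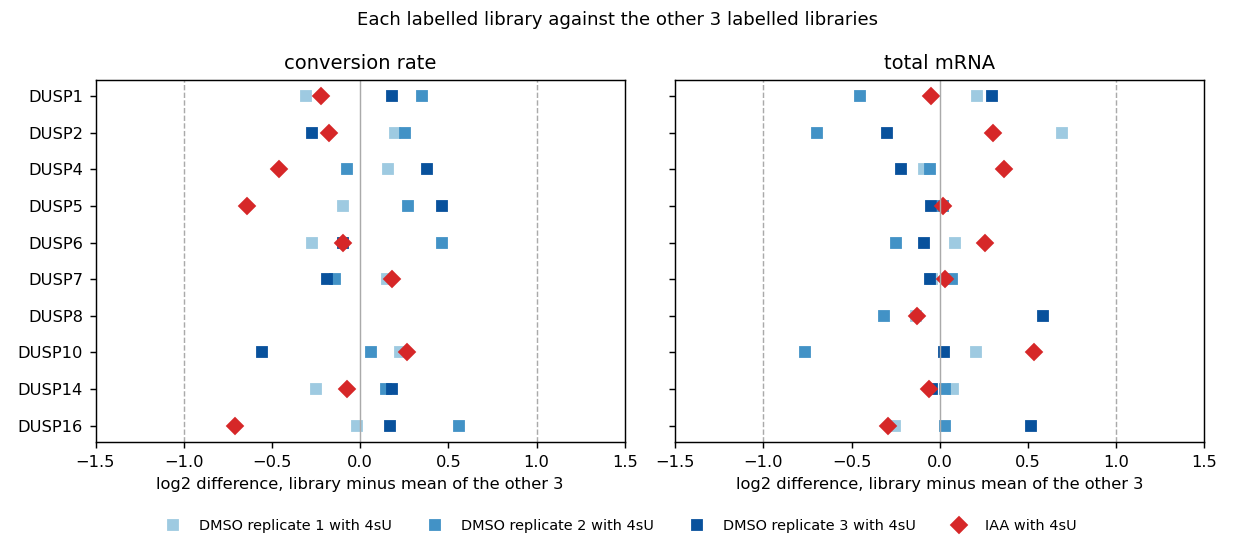
Log2 difference of each labelled library from the mean of the other 3 labelled libraries for each member, in the conversion rate (left, centred on library medians) and in total mRNA (right), with dashed lines at 1 log2 unit. No point reaches the dashed lines, and the IAA library (red) is lowest for DUSP4, DUSP5 and DUSP16 in the rate and highest for DUSP4, DUSP6 and DUSP10 in total mRNA.

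DUSP4, DUSP5 and DUSP16 were the members whose rate was below the DMSO range in the IAA library. DUSP5 was at 1.32% with IAA, below its DMSO 4sU values of 1.75% to 1.98% (log2 difference of centred rates −0.64). DUSP4 was at 0.900%, at the lower end of its DMSO 4sU values of 0.898% to 1.35%, and below all of them once each library was centred on its median (−0.46). DUSP16 was at 0.403%, below 0.547% to 0.667% (−0.71). DUSP1 and DUSP2, the members with the highest rates, were at 9.12% and 9.18% with IAA, and their differences of −0.22 and −0.18 were within the DMSO range after centring. DUSP6 was at 3.09% and differed by −0.10. DUSP7 (1.18%) and DUSP10 (3.14%) were slightly above the DMSO range after centring, by 0.18 and 0.27, and DUSP14 (0.488%) was within it.

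In total mRNA, DUSP4 was at 64.5 CPM in the IAA library, above all 3 DMSO 4sU libraries (44.5 to 48.8 CPM) and below all 3 unlabelled ones (log2 difference 0.37). DUSP6 was at 32.5 CPM, above 23.4 to 28.4 CPM (0.26), and DUSP10 at 5.43 CPM, above 2.12 to 4.23 CPM (0.53). DUSP16 differed by −0.29, at 13.6 CPM, and DUSP14 by −0.06, at 73.1 CPM. These last values were below the DMSO 4sU range only after scaling by TMM, a correction for the composition of each library. DUSP1 was at 21.5 CPM, the same as the DMSO 4sU mean to 3 digits, and DUSP2 and DUSP8 were within the DMSO range at 6.33 CPM and 0.548 CPM. DUSP5 at 8.53 CPM and DUSP7 at 62.5 CPM were above the DMSO 4sU values of 7.72 to 8.17 CPM and 56.2 to 60.4 CPM as deposited, and within the range after TMM. Labelled RNA, taken as the rate above the unlabelled mean multiplied by CPM, was 2.04 ± 0.352 (SD, n = 3) for DUSP1 with DMSO and 1.95 with IAA. The same product of DUSP10 was 0.0799 ± 0.0479 with DMSO and 0.165 with IAA, a ratio of 2.06, and that of DUSP16 was 0.0934 ± 0.0110 and 0.0497, a ratio of 0.533. DUSP10 had 51 to 170 reads per library and DUSP16 had 272 to 401, and the comparison has no replicate check.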

How the data were processed

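SLAM-Seq of MCF10A JUN KO cells with JUN-AID-V5 and TIR1 was analysed in the groups no 4sU (3 libraries), DMSO 4sU (3 libraries) and IAA 4sU (1 distinct library). The authors made QuantSeq 3′ libraries from alkylated RNA and ran a Nextflow SLAM-Seq pipeline (genome build hg19 per the submitters' processing notes; its version is not given in the sources used here). The deposited conversion rate is a fraction of covered T positions read as C, without background subtraction. The deposited CPM column is a signal, reads scaled to library size. Its columns summed to 995593 to 1225981, since reads of an interval recur in each transcript that uses it. It gave whole reads for 100% of values above 0 (tolerance 0.01 reads). The planned tests for CPM were kept. Of the columns of single libraries, 0 were left unused. The depth behind a rate is unknown, as no numbers of covered T positions were analysed here.

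RefSeq identifiers were matched to symbols through a gene table of assembly GRCh38.p14 (names only, 97.7% of 56868 rows). Intervals of a gene with the same reads in every library were counted once. Rates of distinct intervals were averaged and reads summed (19.7% of genes had more than 1). Coordinates are those of the gene in GENCODE release 44 on GRCh37, and 3′ UTRs were matched to counting intervals by length within 20 bases. Where no length matched, as many bases as the interval has were cut from the start of a longer 3′ UTR. This was done for 1164 of the 9071 genes, among them DUSP6. The intervals came without coordinates, so their place is assumed.

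Rates were tested with limma (3.58.1, R 4.3.3; trended and robust variance) on log2(rate + 0.0005) for genes whose rate exceeded 0 in 3 or more of the 6 libraries. Total mRNA was tested on log2(CPM + 1) with TMM library sizes (edgeR 4.0.16) for genes with at least 0.5 CPM in at least 3 of 6 libraries. P-values were adjusted by Benjamini-Hochberg over all genes tested, with a threshold of 0.05. Fold changes on these scales understate those of low genes. edgeR's quasi-likelihood test and DESeq2 (1.42.0) on the recovered reads were alternatives. For IAA, rates were centred on library medians over genes whose rate exceeded 0 in 2 or more of the 4 labelled libraries. Scripts were tested on simulated data. Tables and exact tests were made in Python 3.11.15 with scipy 1.17.1, numpy 2.4.6 and pandas 2.3.3.

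Deviations from group means of same-numbered no 4sU and DMSO 4sU libraries correlated at 0.41, 0.33 and 0.49 in total mRNA (7243 genes) and at -0.0025, -0.012 and 0.0058 in the rate (7232 genes). By this check replicate numbers pair the total mRNA values but not the rates.

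The members and lists were chosen with earlier results of these data known. Named genes are the members and up to 3 genes per pathway list with the largest change past the threshold in each fit. For each of DUSP1, DUSP4, DUSP5 and DUSP6, the 5 most correlated genes with a mean of at least 5 CPM are also named. JUN is named as the degraded protein, and CD3E and the other markers from fixed marker lists, of which 1 gene is not reported here.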

Additional observations from a re-analysis of the deposited data

How the results depend on the processing

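The 9 members called in the conversion rate were called under each alternative that tested them, except centring on library medians. A rate above 0 in all 6 libraries left 8 members to test (without DUSP2) and 200 reads on average left 7 (without DUSP2 and DUSP10), all called. Centring moved the median of all genes from 1.27 to -0.10, left 8 members (DUSP14 lost) and split all genes into 920 higher and 310 lower, against 5299 and 10. In total mRNA, leaving out 1 replicate of both groups gave 2 to 5 members. Without replicate 1 these were 5 (DUSP1, DUSP2, DUSP4, DUSP6 and DUSP7), and without replicate 2 or 3 they were DUSP1 and DUSP6. The log2 change of DUSP14 was -0.10 to 0.18 and that of DUSP8 -0.42 to 0.011 when 1 replicate was left out, turning sign without replicate 1 for DUSP14 and without replicate 2 for DUSP8. DESeq2 and adding the IAA library gave 4 members each (with DUSP5). With the replicate block, 3 members were past the threshold in total mRNA (294 genes) and 9 in the rate (4228 genes), and it changed no call of a member. edgeR with the replicate block, chosen after seeing the data, gave 3 members and 224 genes. Over all genes, the 221 genes lower in total mRNA became 475, 31 and 37 without replicates 1, 2 and 3, 429 with DESeq2, 382 with the IAA library added, 126 with at least 5 CPM and 68 with at least 200 reads, and the 5299 genes higher in rate became 2085 to 2674 when 1 replicate was left out. For IAA, 3 alternatives chosen after seeing the data gave members. The rate multiplied by CPM gave 1 of 9 (DUSP10), beside 25.4% of all genes. A limit of 0.5 log2 units gave 2 of 9 in the rate (DUSP5 and DUSP16), beside 35.8% of all genes. In total mRNA this limit gave 1 of 10 (DUSP10), beside 5.07%. Nothing is drawn from these counts. Over all genes, 17 genes in total mRNA became 108 without DMSO 4sU replicate 1, 50 and 6 with pseudocounts of 0.5 and 5, 30 without TMM and 619 at 0.5 log2 units, and 2522 genes in the rate became 1507 with a pseudocount of 0.002, 1398 with rates above 0 in all labelled libraries, 787 with at least 200 reads and 4205 at 0.5 log2 units. The difference in median rate was 0 without a filter, since the typical gene is then listed at 0 in each library. The cause of the other moves was not tested. Reads limit DUSP8 (9 to 31 per library), DUSP10 and DUSP2.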
